A study of Homo sapiens with 4 samples.

Results

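The amnion and trophoblast effector genes are 5 genes, VTCN1, GABRP, VGLL1, CGA and CYP19A1, taken by symbol from the 25690 gene rows of a table of RNA sequencing counts. Each symbol matched 1 row, and all 5 passed the filter on low counts. The RNA was taken on day 7 from cultures of H9, an established line of human embryonic stem cells. The series calls these cultures non-neural ectoderm, which in the embryo lies beside the neural plate. There were 2 libraries with the genotype label TFAP2A knockout and 2 wild-type (WT) libraries. The knockout libraries carry TFAP2C in their sample titles, against TFAP2A in the genotype label and in the table's column names, so they are called the knockout-labelled libraries throughout. The labels give no growth protocol, clone or guide, and do not say whether replicates were grown separately, so a p-value here measures the spread between libraries, which may be technical.

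Amnion and trophoblast are extraembryonic epithelia. Amnion forms the membrane around the embryo, and trophoblast forms the surface of the placenta. Both arise in cultures of human pluripotent cells exposed to BMP signals, which are also used to make non-neural ectoderm, and they share GATA, AP-2 and keratin genes with it. Among the members, VTCN1 encodes B7-H4, a surface protein that dampens T cells. GABRP encodes the pi subunit of the GABA-A receptor, a chloride channel, and both genes are widely used to mark amnion-like cells. VGLL1 encodes a cofactor of the TEAD transcription factors and is known from human cytotrophoblast. CGA encodes the alpha subunit shared by chorionic gonadotropin and the pituitary glycoprotein hormones, and CYP19A1 encodes aromatase, the enzyme that converts androgens to oestrogens. Chorionic gonadotropin and placental oestrogen are products of the syncytiotrophoblast, the fused outer layer of the placenta.

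The start regions of 4 members are printed because they are the sequences in which the motifs of the AP-2, TEAD, GATA and cyclic AMP response factors were searched. Each is the 250 bases before the start that RefSeq gives on GRCh38.p14, written 5′ to 3′ on the gene's strand, with motif matches in capitals.
VTCN1, chr1:117210928-117211177, minus strand: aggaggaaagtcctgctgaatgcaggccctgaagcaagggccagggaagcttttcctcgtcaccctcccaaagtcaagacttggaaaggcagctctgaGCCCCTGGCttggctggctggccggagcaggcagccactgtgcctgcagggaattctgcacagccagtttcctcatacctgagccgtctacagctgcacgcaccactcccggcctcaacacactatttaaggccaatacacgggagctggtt
GABRP, chr5:170783475-170783724, plus strand: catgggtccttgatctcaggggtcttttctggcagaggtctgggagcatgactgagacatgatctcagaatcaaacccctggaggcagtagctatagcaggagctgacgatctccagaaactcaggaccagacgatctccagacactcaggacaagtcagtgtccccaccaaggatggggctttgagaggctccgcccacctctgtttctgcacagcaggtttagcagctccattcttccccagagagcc
VGLL1, chrX:136531965-136532214, plus strand: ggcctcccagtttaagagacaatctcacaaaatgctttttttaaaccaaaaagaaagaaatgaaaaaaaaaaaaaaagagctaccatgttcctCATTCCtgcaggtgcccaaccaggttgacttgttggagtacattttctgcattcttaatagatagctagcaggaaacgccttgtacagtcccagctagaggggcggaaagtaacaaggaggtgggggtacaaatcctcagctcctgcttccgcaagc
CGA, chr6:87095107-87095356, minus strand: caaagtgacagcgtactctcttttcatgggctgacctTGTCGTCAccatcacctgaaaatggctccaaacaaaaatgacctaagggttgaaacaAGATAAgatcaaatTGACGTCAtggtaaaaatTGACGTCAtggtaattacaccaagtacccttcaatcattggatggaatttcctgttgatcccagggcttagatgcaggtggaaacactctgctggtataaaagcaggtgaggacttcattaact
The motifs were GCCNNNGGC for AP-2, CATTCC for TEAD, AGATAA for GATA and TGACGNCA for the cyclic AMP response element (CRE), each on both strands. The AP-2 letters occurred once in the VTCN1 region, at -152 to -144 counted from the start, and in 19.79% of all 35116 RefSeq promoters over the same length. The TEAD letters occurred once in the VGLL1 region, at -157 to -152, and in 11.89% of all promoters. The CGA region held AGATAA once, which 9.17% of promoters hold, and the CRE letters in 3 places, which 3.06% of promoters hold at least once. Of these 3, the pair at -142 to -135 and at -124 to -117 read TGACGTCA, and the one at -213 to -206 read TGTCGTCA, a match on the other strand. None of the capital motifs overlapped another, and GABRP held none of the 4. CYP19A1 has 7 annotated starts, and its single row of counts does not show which was used, so none of its regions is printed. Of these 7 regions, the second from upstream held AGATAA in 2 places, the sixth and the seventh held CATTCC once each, and the others held none of the motifs. A match is a description of the letters only.

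All 5 members fell in the knockout-labelled libraries, where 22.3% of the 15643 genes tested were called lower. The genes called in either direction made up 44.2%, with 3427 higher (21.9%) and 3492 lower, by edgeR's quasi-likelihood test at an adjusted p under 0.05 (Benjamini-Hochberg over all genes tested). Each member had a log2 fold change of -1 or less, a size that 6.77% of all genes tested reached with a call. No member's values overlapped between genotypes, and 36.5% of all genes tested were likewise lower with no overlap. The median log2 fold change of the members was -4.22, against 0.00 over all genes tested. VTCN1, GABRP and CYP19A1 kept 5.04%, 5.37% and 5.27% of their WT level, VGLL1 kept 36.6%, and CGA was not detected. Levels are in CPM, the library-size-scaled count with the TMM factors of edgeR, and a log2 fold change is knockout-labelled over WT. These are bulk RNA samples, in which fewer cells of a type and less RNA per cell cannot be told apart.

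VTCN1 lies on chromosome 1 at 117686209 to 117753582 (minus strand; these and all further gene positions are printed as hg19). It was at 19.97 and 15.1 CPM in the knockout-labelled libraries, against 344 and 353 CPM in WT. The groups did not overlap, and the WT libraries differed from each other by a factor of 1.03. The log2 fold change was -4.32 (SE 0.10, adjusted p = 6.74e-09, edgeR), and 0.518% of the genes tested had a lower one.

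GABRP lies on chromosome 5 at 170210723 to 170241050 (plus strand) and had the most counts of the members. It was at 78.3 and 47.02 CPM in the knockout-labelled libraries, against 1126 and 1207 CPM in WT. The groups were far apart, but the knockout-labelled libraries differed from each other by a factor of 1.66. Their counts were 1528 and 1025.5, and the 95% exact Poisson intervals, 74.4 to 82.3 and 44.2 to 49.99 CPM, did not overlap. The log2 fold change was -4.22 (SE 0.36, adjusted p = 0.0145, edgeR). The call was lost without WT replicate 1 (log2 fold change -4.28, adjusted p = 0.0879) and without WT replicate 2 (-4.18, adjusted p = 0.124).

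VGLL1 lies on the X chromosome at 135614311 to 135638966 (plus strand). It was at 12.04 and 9.67 CPM in the knockout-labelled libraries, against 27.3 and 31.98 CPM in WT. The groups did not overlap, and this was the smallest fall among the members (log2 fold change -1.45, SE 0.12, adjusted p = 4.15e-07, edgeR). The row of the microRNA MIR934, which lies within VGLL1 on the same strand, had 0 counts in all 4 libraries.

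CYP19A1 lies on chromosome 15 at 51500254 to 51630795 (minus strand) and was rare. It had 3 and 3 counts in the knockout-labelled libraries, against 45.5 and 51.5 counts in WT. These are 0.154 and 0.137 CPM in the knockout-labelled libraries and 2.57 and 2.95 CPM in WT, with no overlap. The log2 fold change was -4.19 (SE 0.41, adjusted p = 1.27e-06, edgeR). From the summed counts, 6 against 97, the level in WT was 18.8 times that in the knockout-labelled libraries, with a 95% exact (Clopper-Pearson) interval of 8.34 to 52.5. Such intervals and floors cover counting error only.

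CGA lies on chromosome 6 at 87795216 to 87804865 (minus strand). It had 0 counts in both knockout-labelled libraries, against 26.5 and 48 counts in WT. A count of 0 has a 95% exact Poisson upper limit of 0.189 and 0.169 CPM in these libraries, whereas WT was at 1.45 and 2.72 CPM. The groups did not overlap, and the WT libraries differed by a factor of 1.87. The mean WT level of CGA was 28.8-fold that of 3 counts over both knockout-labelled libraries. This ratio leaves out the spread between the WT libraries. CGA was called lower (adjusted p = 2.09e-05, edgeR). Its fitted log2 fold change, -8.33, depends on the prior count of the fit and is no bound.

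**Figure D1:**
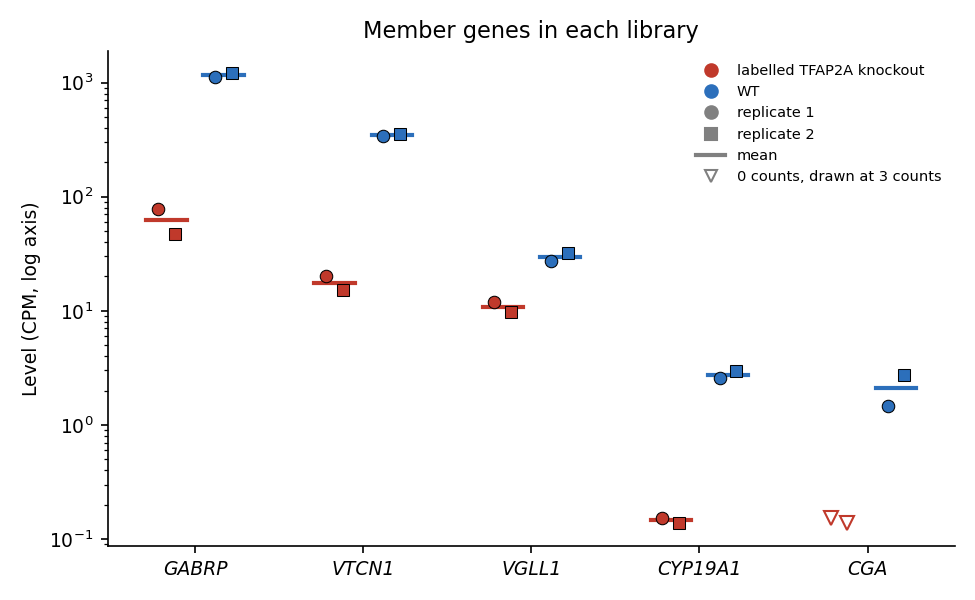
Level of each member in each library, in CPM on a log axis, with circles for replicate 1, squares for replicate 2, bars for the mean of 2 libraries and open triangles at 3 counts for libraries with 0 counts. Every knockout-labelled library lies below both WT libraries for all 5 genes, with the narrowest gap for VGLL1 (12.04 and 9.67 CPM, against 27.3 and 31.98 CPM).

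**Figure D2:**
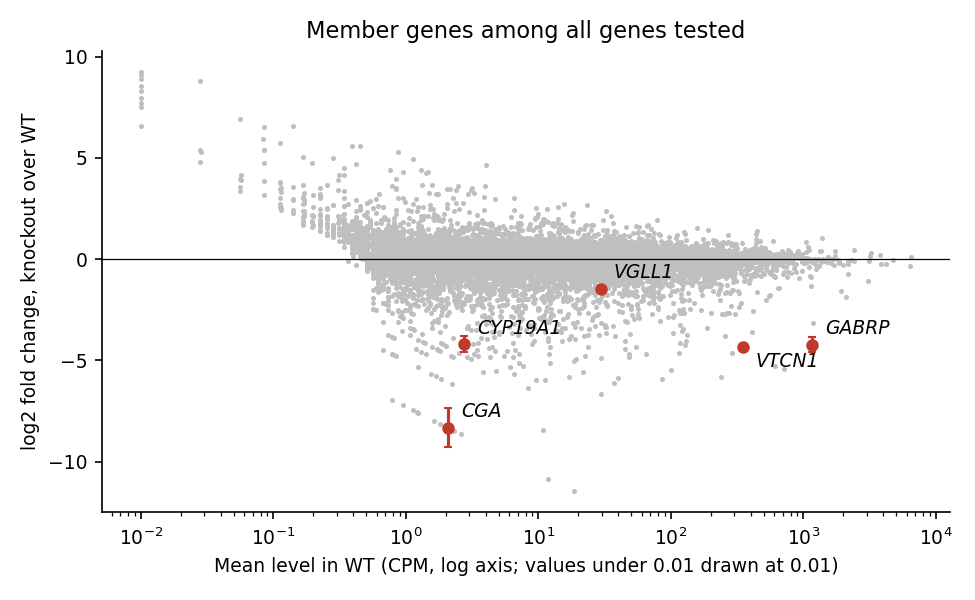
Fitted log2 fold change (knockout-labelled over WT) against the mean WT level in CPM on a log axis, for the 15643 genes tested in grey and the members in red with standard errors. GABRP and VTCN1 lie at high WT levels with log2 fold changes of -4.22 and -4.32, while the position of CGA at -8.33 depends on the prior count because it had 0 counts in the knockout-labelled libraries.

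The order of the members, set by CPM per kilobase of the longest coding GENCODE transcript, differed between genotypes. In the knockout-labelled libraries GABRP came first, at 17.5 ± 6.18 CPM per kilobase (SD, n = 2), followed by VGLL1 at 8.93 ± 1.38, VTCN1 at 6.45 ± 1.26 and CYP19A1 at 0.033 ± 0.00259, with CGA at 0. In WT the order was GABRP at 326 ± 16.1 CPM per kilobase, VTCN1 at 128 ± 2.39, VGLL1 at 24.4 ± 2.70, CGA at 2.07 ± 0.888 and CYP19A1 at 0.625 ± 0.0602. VGLL1 and VTCN1 thus stood in opposite orders, and their single values, 9.91 and 7.96 for VGLL1 and 7.35 and 5.56 for VTCN1 in the knockout-labelled libraries, did not overlap. GABRP lay above the next gene, and CYP19A1 below VTCN1, in each knockout-labelled library, and the WT order held in each WT library. In the knockout-labelled libraries CYP19A1, at 3 counts, and CGA, at 0 counts, cannot be put in order at this depth. The order also depends on which transcript lengths are used. In CPM, without lengths, VTCN1 was above VGLL1 in every library, by 1.66 and 1.56 times in the knockout-labelled libraries.

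Ratios among VTCN1, GABRP and CYP19A1 within a library overlapped between genotypes, and ratios to VGLL1 did not. The ratio of VTCN1 to GABRP in CPM was 0.255 and 0.322 in the knockout-labelled libraries, against 0.305 and 0.292 in WT, and these ranges overlap. The ratio of GABRP to CYP19A1 was 509 and 342 in the knockout-labelled libraries, against 438 and 409 in WT, with overlap, although each knockout-labelled value rests on 3 counts of CYP19A1. By contrast the ratio of VTCN1 to VGLL1 was 1.66 and 1.56 in the knockout-labelled libraries, against 12.6 and 11.03 in WT. That of GABRP to VGLL1 was 6.502 and 4.86 in the knockout-labelled libraries, against 41.2 and 37.7 in WT. Neither of these overlapped, which restates the smaller fall of VGLL1 given above. Among 6 ratios computed, the 3 with VGLL1 were the ones without overlap. These ratios are a description, since 2 libraries against 2 cannot give an exact permutation p below 0.333 and overlap does not show that a ratio was unchanged.

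**Figure D3:**
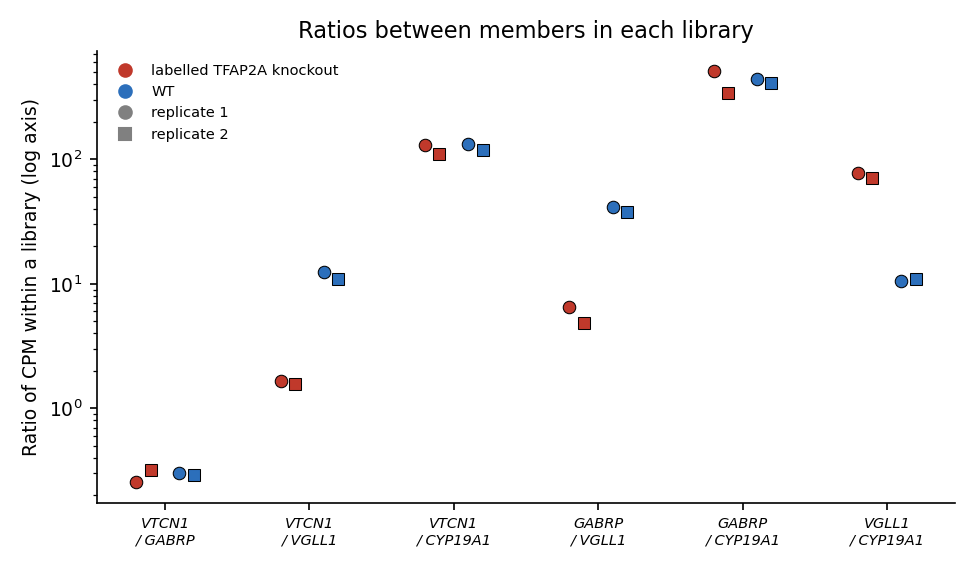
Ratio of the CPM of 2 members within each library, on a log axis, for the 6 pairs of members with counts in all libraries, with circles for replicate 1 and squares for replicate 2. The genotypes overlap for the 3 pairs among VTCN1, GABRP and CYP19A1 and are apart for the 3 pairs that hold VGLL1.

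The depth and identity of the libraries bear on all of these values. Total counts were 17838204 to 21797850.5 per library. TFAP2A itself was at 133 and 120.5 CPM in the knockout-labelled libraries, against 171 and 198 CPM in WT, so its transcript was lower but present, and a count for the whole gene says nothing of single exons. TFAP2C, the gene in the titles, was at 8.91 and 5.77 CPM against 27.5 and 30.6 CPM in WT. Simple epithelial keratins were abundant in all libraries, with KRT8 at 1049 and 1061 CPM in the knockout-labelled libraries and 1293 and 1335 CPM in WT. Among epidermal keratins, KRT5 and KRT14 had at most 0.5 counts in any library, whereas KRT10 had enough counts to be tested and did not pass.

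The other GABA-A receptor subunits moved in both directions. Functional receptors combine subunits of several classes, and GABRP stood far above the other subunits in WT. Among the 10 other subunits tested, 5 rose, 3 fell and 2 did not pass (median log2 fold change 0.43), which is 50% higher and 30% lower, against 21.9% and 22.3% of all genes tested. GABRA5, an alpha subunit, had 23.5 and 30.5 counts in the knockout-labelled libraries, against 3 and 3 counts in WT (log2 fold change 2.90, SE 0.49). GABRB1, a beta subunit, was at 2.41 and 1.33 CPM against 0.391 and 0.170 CPM in WT (log2 fold change 2.69, SE 0.49). GABRA4 also rose, at 13.5 and 15 counts in the knockout-labelled libraries against 1 and 4 counts in WT. Its call was lost when knockout-labelled replicate 1 (adjusted p = 0.0634), knockout-labelled replicate 2 (0.0633) or WT replicate 1 (0.119) was left out, and with DESeq2 (0.136). GABRA3, at 3.48 and 3.07 CPM against 3.58 and 4.42 CPM in WT, and GABRA2 did not pass. Summed over the other 18 subunits, the level was 27.7 and 25.3 CPM in the knockout-labelled libraries, against 37.6 and 39.5 CPM in WT. Per length, GABRP made up 79.4% and 71.8% of the family's CPM per kilobase in the knockout-labelled libraries, against 98.2% and 98.3% in WT.

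The B7 family of VTCN1 moved both ways. Of the 4 others tested, 2 rose, 1 fell and 1 did not pass, too few to set against the 21.9% higher and 22.3% lower of all genes tested. C10orf54, which encodes the checkpoint protein VISTA, was at 4.81 and 5.64 CPM in the knockout-labelled libraries, against 13.6 and 14.4 CPM in WT (log2 fold change -1.42, SE 0.15). NCR3LG1, which encodes a ligand of a natural killer cell receptor, was at 11.9 and 10.4 CPM against 4.08 and 4.42 CPM in WT (log2 fold change 1.39, SE 0.16). CD276, which encodes B7-H3, rose by a small amount, to 323 and 348 CPM against 296 and 271 CPM in WT, and its adjusted p (edgeR) was 0.0559 without WT replicate 2. ICOSLG did not pass. VTCN1 made up 7.05% and 5.08% of the family's CPM per kilobase in the knockout-labelled libraries, against 58.4% and 60.98% in WT, while the share of CD276 was 89.4% and 91.7% against 39.4% and 36.8%. The ligand genes CD86, PDCD1LG2 and HHLA2 had at most 2 counts in any library.

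VGLL1 binds TEAD factors, as do the coactivators YAP1 and WWTR1 (TAZ) and the other VGLL proteins, and the genes of these partners moved in both directions. Of the 9 others tested, 4 fell, 2 rose and 3 did not pass (median log2 fold change -0.12). The share lower was 44.4%, against 22.3% of all genes tested, and the share higher, 22.2%, was that of all genes, 21.9%. VGLL2 rose, at 6.66 and 12.5 CPM in the knockout-labelled libraries against 0.615 and 1.08 CPM in WT (log2 fold change 3.50, SE 0.43, adjusted p = 0.000772, edgeR). VGLL3 fell, at 1.89 and 1.97 CPM against 4.92 and 4.20 CPM in WT (log2 fold change -1.23, SE 0.22). TEAD3 fell to 169.9 and 172 CPM against 226 and 225 CPM in WT. YAP1, at 462 and 430.0 CPM against 492 and 474 CPM in WT, VGLL4 and TEAD4 did not pass. TEAD4 was at 41.3 and 40.1 CPM in the knockout-labelled libraries, against 35.7 and 37.2 CPM in WT. Besides VGLL2, TEAD2 was called higher. Leaving out knockout-labelled replicate 2 (adjusted p = 0.0675, edgeR) or WT replicate 1 (0.0611) ended that call, so that 1 gene of the list rose in either case.

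CGA was accompanied by low counts of chorionic gonadotropin beta genes. The products of CGA and of a CGB gene join to form the hormone. CGB (listed today as CGB3), CGB5 and CGB8 are near-identical copies between which counting can split reads, so their sum is given. The choice was made after their values were seen. Each had 0 counts in the knockout-labelled libraries, so the choice fixed the sum of 0 there. The sum was 0 and 0 counts in the knockout-labelled libraries, against 14 and 17.5 counts in WT. The mean WT sum was 12.2-fold that of 3 counts over the knockout-labelled libraries, a ratio that also leaves out the WT spread. None of CGB, CGB5 and CGB8 had enough counts to be tested singly. CGB7, a further beta gene with 18 and 12 counts in the knockout-labelled libraries, was left out of the sum. It was at 0.922 and 0.550 CPM against 1.96 and 1.13 CPM in WT, and was called lower (log2 fold change -1.08, SE 0.39, adjusted p = 0.0361, edgeR). That call was lost when knockout-labelled replicate 2 (adjusted p = 0.255) or WT replicate 1 (0.366) was left out, with limma-voom (0.0592) and with DESeq2 (0.254). The pituitary beta subunits FSHB and TSHB had 0 counts in all 4 libraries. LHB, also a pituitary beta subunit, had 2.5 and 2 counts in the knockout-labelled libraries, against 2.5 and 0 counts in WT, and was not tested. FSHR, a receptor of this hormone family, had 10 to 12.5 counts in each library and did not pass.

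CYP19A1 had the largest change among the tested genes of steroid synthesis and oestrogen response, most of which did not pass. Of the 16 others tested, 4 rose, 3 fell and 9 did not pass (median log2 fold change -0.03). These shares, 25% higher and 18.8% lower, were near the 21.9% and 22.3% of all genes tested. STS, steroid sulfatase, which frees steroids from their sulfates in the placenta, fell to 12.7 and 12.2 CPM in the knockout-labelled libraries, against 42.2 and 44.2 CPM in WT (log2 fold change -1.80, SE 0.09). HSD17B1, which makes oestradiol from oestrone, fell to 19.3 and 19.2 CPM against 28.2 and 28.01 CPM in WT (log2 fold change -0.55, SE 0.09). ESRRG, an orphan nuclear receptor present in placenta, rose to 16.2 and 14.5 CPM against 5.93 and 5.16 CPM in WT (log2 fold change 1.47, SE 0.14). STAR, which carries cholesterol into mitochondria, was at 5.84 and 9.62 CPM against 3.75 and 3.06 CPM in WT (log2 fold change 1.19, SE 0.25). CYP11A1, which starts steroid synthesis from cholesterol, did not pass, at 4.40 and 5.96 CPM against 4.47 and 5.33 CPM in WT. POR, which donates electrons to aromatase, did not pass either, at 78.6 and 81.7 CPM against 79.8 and 81.1 CPM in WT. ESR2, an oestrogen receptor, was the third gene called lower, at 16.5 and 9.5 counts against 23.5 and 21 counts in WT (adjusted p = 0.0494, edgeR). Its call was lost under 9 of 13 alternatives, among them leaving out knockout-labelled replicate 2 (adjusted p = 0.330), WT replicate 1 (0.201) or WT replicate 2 (0.109), the replicate block (0.0697) and DESeq2 (0.343). HSD3B1, the placental enzyme of progesterone synthesis, had 2 and 3.5 counts against 8 and 10 counts in WT and was not tested. NR5A2 and HSD11B2 were also called higher, but without knockout-labelled replicate 1, WT replicate 1 or WT replicate 2 both lost their calls and 2 genes of the list rose, as with DESeq2.

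**Figure D4:**
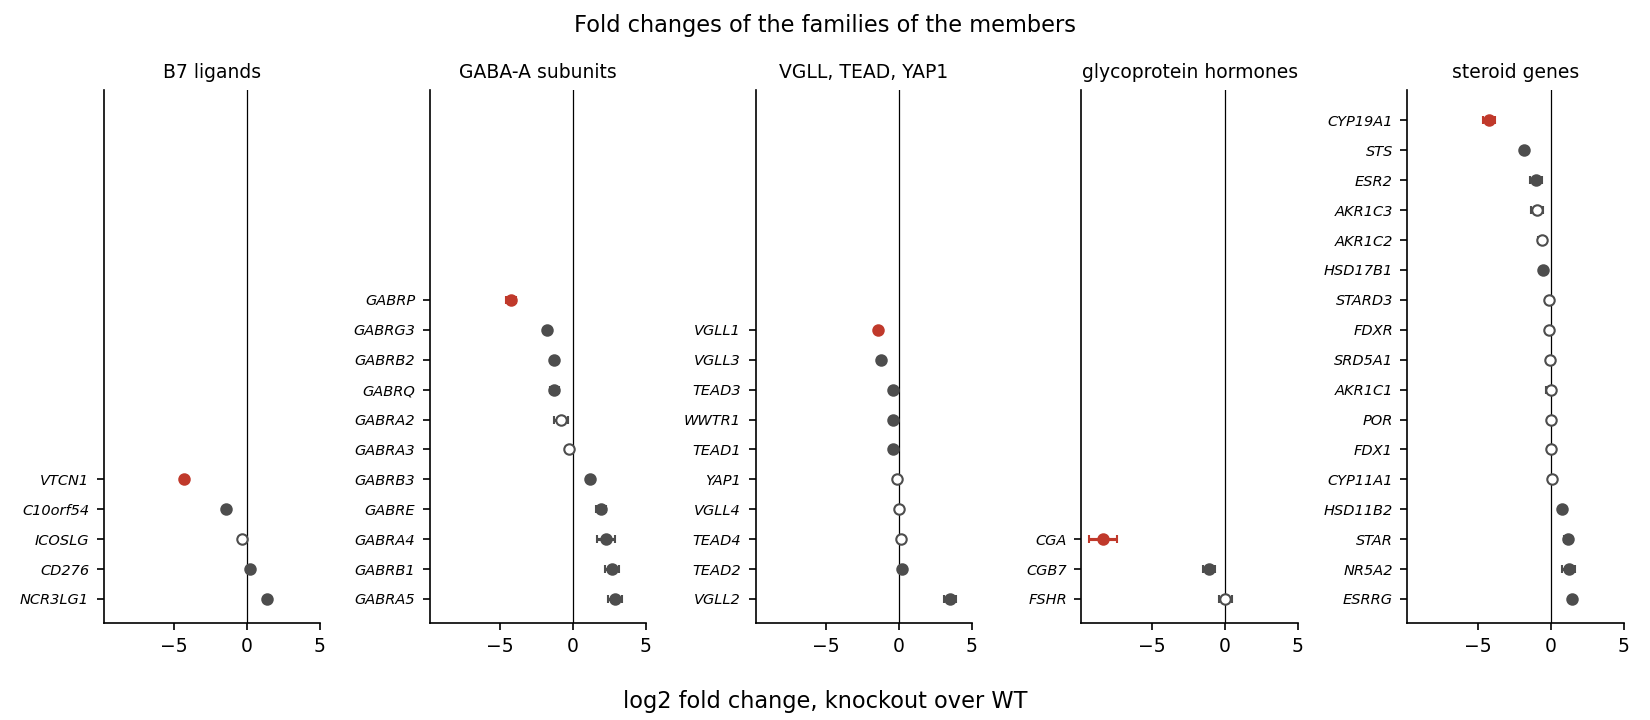
Log2 fold change (knockout-labelled over WT) with its standard error for each tested gene of the families of the 5 members, with members in red, filled symbols for an adjusted p under 0.05 and open symbols for genes that did not pass. Each member lies at the lower end of its family, VTCN1 at -4.32, GABRP at -4.22, VGLL1 at -1.45, CGA at a fitted -8.33 that is no bound, and CYP19A1 at -4.19.

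Transcription factors of trophoblast and amnion were mostly lower. Among the 23 with enough counts, 15 were lower, 2 were higher and 6 did not pass, that is 65.2% lower against 22.3% of all genes tested (median log2 fold change -0.54). The 15 include TFAP2A, the gene of the genotype label (-0.54), and TFAP2C, the gene of the titles (-1.99). The trophectoderm factor CDX2 had 3 and 2 counts in the knockout-labelled libraries, against 60 and 64.5 counts in WT (log2 fold change -4.78, SE 0.40). HAND1, a factor of trophoblast and extraembryonic mesoderm, was at 76.9 and 71.9 CPM against 323 and 353 CPM in WT (log2 fold change -2.18, SE 0.06). MSX1, TFAP2B and GRHL1 completed the 4 with the largest change, at log2 fold changes of -3.66, -2.67 and -2.47. GATA2, at 63.5 and 58.4 CPM against 65.2 and 67.3 CPM in WT, did not pass, nor did TBX3 and ELF3. ISL1, used as an amnion marker, rose to 14.2 and 8.34 CPM against 3.36 and 3.52 CPM in WT (log2 fold change 1.71, SE 0.26). PPARG also rose, but its adjusted p (edgeR) was 0.0543 without knockout-labelled replicate 2, and with DESeq2 it was 0.0653, so that ISL1 was the 1 gene called higher in either fit. GCM1 and ELF5, factors of villous trophoblast, had at most 6 counts in any library.

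Many genes of the mature placenta were at 0 or near it in both genotypes. Of 37 placental and trophoblast genes found, 14 had 0 counts in all 4 libraries, among them 6 pregnancy-specific glycoprotein genes (PSG), the placental lactogen genes CSH1 and CSH2, GH2 and INSL4. A further 10 had too few counts to test. Among the remaining 13, 7 were lower (53.8%, against 22.3% of all genes tested), 3 were higher (23.1%, near the 21.9% of all genes) and 3 did not pass. PAPPA2, which encodes a protease of insulin-like growth factor binding proteins, was at 1.49 and 1.19 CPM in the knockout-labelled libraries, against 10.01 and 13.2 CPM in WT (log2 fold change -3.12, SE 0.21). KRT23 fell to 0.717 and 0.412 CPM against 3.75 and 4.54 CPM in WT, and the metalloprotease gene ADAM12 to 18.1 and 15.2 CPM against 68.2 and 81.7 CPM in WT. LGALS14, a placental galectin, rose, with 23 and 26 counts against 2 and 3.5 counts in WT (log2 fold change 2.76, SE 0.51). PGF and MFSD2A were also called higher, and without knockout-labelled replicate 1 or WT replicate 1, and with DESeq2, only LGALS14 of the 3 was called.

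Other genes used to mark amnion were mostly lower. Among 23 with enough counts, 14 were lower, 4 were higher and 5 did not pass (median log2 fold change -0.48). The share lower was 60.9%, against 22.3% of all genes tested, and the share higher was 17.4%, against 21.9%. WNT6, a secreted ligand, was at 0.922 and 0.917 CPM in the knockout-labelled libraries, against 12.5 and 9.81 CPM in WT (log2 fold change -3.59, SE 0.22). POSTN, a matrix gene also high in mesenchyme, was at 13.5 and 15.6 CPM against 82.4 and 77.5 CPM in WT (log2 fold change -2.45, SE 0.08). TNC was at 40.05 and 23.2 CPM against 180.4 and 222 CPM in WT, a fall (adjusted p = 0.0373, edgeR) whose call was lost when WT replicate 1 (0.112) or WT replicate 2 (0.188) was left out, and with the replicate number as a block (0.0573). TGFB2 rose to 143 and 196 CPM against 34.5 and 30.5 CPM in WT, with an adjusted p of 0.0744 (edgeR) without WT replicate 2. The surface and keratin genes with high levels that did not pass included KRT18, at 270.4 and 254 CPM against 269 and 347 CPM in WT.

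Markers of other cell types also changed, in both directions, and their part in the members' fall was not tested. All 7 of the neural ectoderm markers tested rose, of 10 listed, against 21.9% higher among all genes tested. With DESeq2 5 were called, without FABP7 (adjusted p = 0.0579) and LHX2 (0.173), and 5 were called without WT replicate 2, which ended the calls of SOX2 and of LHX2 (0.163). LHX2 also lost its call without knockout-labelled replicate 1 (0.0643). The summed level of the 10 was 340 and 299.5 CPM in the knockout-labelled libraries, against 131 and 132 CPM in WT. CDH2, the neural cadherin, carried most of that sum. SOX2 was among them, at 51.8 and 31.4 CPM against 11.7 and 10.9 CPM in WT, and its call was lost when WT replicate 1 (adjusted p = 0.114, edgeR) or WT replicate 2 (0.248) was left out, and with no filter on low counts (0.0881). All 5 of the endothelial and blood markers tested fell, of 10 listed, against 22.3% lower among all genes tested, and their summed level was 11.1 and 12.6 CPM in the knockout-labelled libraries, against 54.2 and 57.05 CPM in WT, although PECAM1 and HBZ had 0 counts in all 4 libraries. The 10 mesoderm and endoderm markers summed to 118 and 123 CPM in the knockout-labelled libraries, against 88.9 and 87.7 CPM in WT, with 2 of 5 tested higher and 1 lower, and T (TBXT) and EOMES at 0 counts throughout. The 8 pluripotency markers summed to 561 and 475 CPM in the knockout-labelled libraries, against 657 and 716 CPM in WT. Of the 5 tested, SOX2 was called higher and LIN28A lower, and NANOG had at most 1 count in any library. The 10 epidermal keratinocyte markers summed to 51.5 and 39.9 CPM in the knockout-labelled libraries, against 63.8 and 61.2 CPM in WT, with IVL and LOR at 0 counts throughout. TP63 and KRT10 were tested and did not pass. Of the 4 tested, TGM1 fell, and 2 fell without knockout-labelled replicate 1 or without WT replicate 2.

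Of the 5 rows on each side of each member on its chromosome, 33 could be tested, and 8 fell, 8 rose and 17 did not pass. The share in each direction, 24.2%, was near the 22.3% lower and 21.9% higher of all genes tested. The neighbours named here were chosen for their place or after their values were seen. Around VTCN1, the nearest tested gene on each side did not pass. These were TRIM45, at 52.5 and 42.8 CPM against 38.9 and 41.5 CPM in WT, and MAN1A2, 157 kb away, at 97.6 and 89.5 CPM against 86.9 and 90.7 CPM in WT. CD101 (log2 fold change 0.94, SE 0.19) and LOC101929099 (1.33, SE 0.35), on the side of TRIM45 and nearer than MAN1A2, were called higher. The call of LOC101929099 was lost with DESeq2 (adjusted p = 0.122). Of the 8 tested there, 3 rose and 1 fell, FAM46C at 395 kb (log2 fold change -1.91, SE 0.27). Around VGLL1 none of 5 tested fell, and HTATSF1 beside it was at 128 and 131 CPM against 123 and 116 CPM in WT. Around GABRP 2 of 5 tested fell. The nearer was RANBP17, 47.8 kb away (log2 fold change -0.57, SE 0.12). TLX3, a homeobox gene 495 kb from GABRP, fell to 2.5 and 4 counts in the knockout-labelled libraries, against 112 and 106 counts in WT. Of the 7 tested around CGA, 2 rose, 1 fell and 4 did not pass. The gene that fell was HTR1E, a serotonin receptor gene in the row next to CGA, at 0.768 and 0.779 CPM against 3.24 and 4.31 CPM in WT. ZNF292, in the next row on the other side at 60.4 kb, rose (log2 fold change 0.37, SE 0.09, and 0.25 without WT replicate 1). Around CYP19A1, 4 of 8 tested fell, among them GLDN, 2.92 kb away on the other strand, at 0.819 and 0.412 CPM against 2.96 and 3.402 CPM in WT. LYSMD2, 384 kb away, had 23.5 and 23.5 counts against 105.5 and 92.5 counts in WT.

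**Figure D5:**
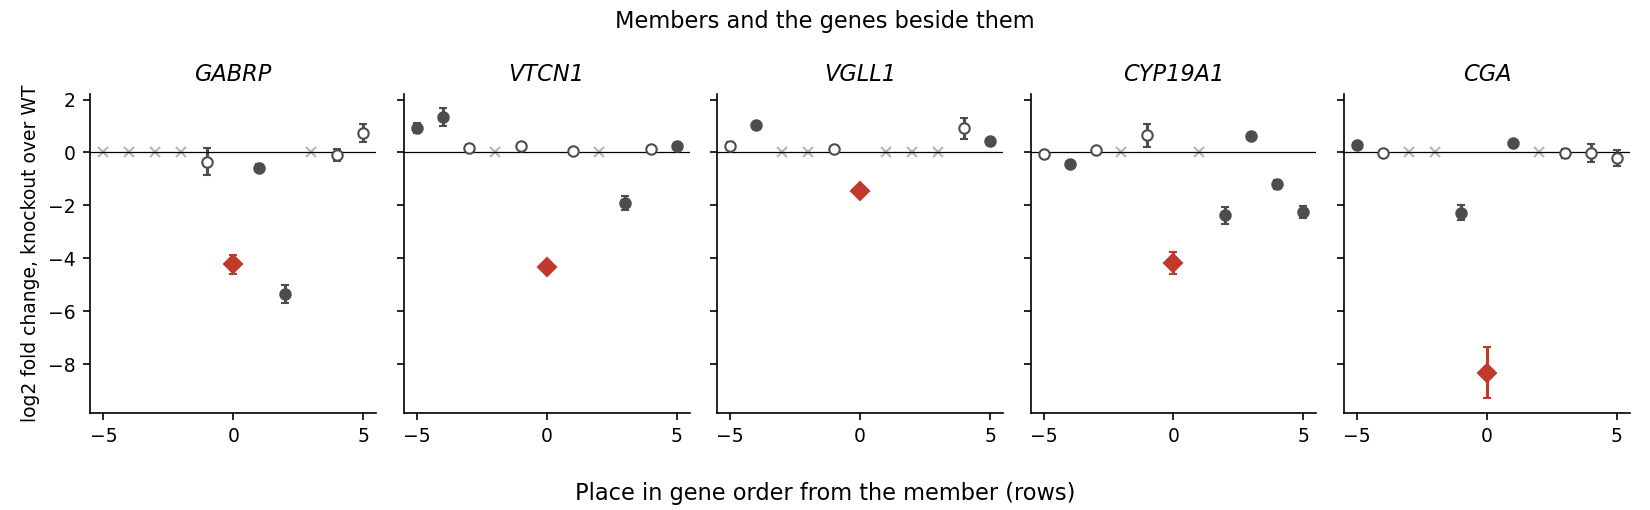
Log2 fold change (knockout-labelled over WT) with its standard error of each member (red diamond) and of the 5 rows on either side of it in gene order, with filled circles for an adjusted p under 0.05, open circles for genes that did not pass and grey crosses at 0 for rows not tested. VTCN1 and VGLL1 stand below the nearest tested neighbour on each side, none of which passed. TLX3 at place 2 beside GABRP lies at -5.34, below GABRP at -4.22, and 4 of the 8 tested genes around CYP19A1 are lower.

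The genes with the pattern most like each member over the 4 libraries were found among 14029 protein-coding genes, by the root mean square difference of log2(CPM + 0.5) centred on each gene's mean. They share the same 4 libraries and the offset shrinks rare genes, so genes with unlike fold changes can be matched and this is a description. For VTCN1 they were DLX2, ISM1 and TNFSF8, at differences of 0.0757, 0.0869 and 0.0934. For GABRP they were GRIK1, which encodes a kainate receptor subunit, TNFSF8 and ATP8B4, at 0.112, 0.150 and 0.163. GRIK1 was at 3.28 and 2.15 CPM in the knockout-labelled libraries, against 50.4 and 58.6 CPM in WT, so it also had the gap between the knockout-labelled libraries seen in GABRP. For VGLL1 they were PDGFRL, EML5 and ANXA1, at 0.0359, 0.0405 and 0.0438. For CGA they were DNAH9, HRH1 and COL12A1, at 0.0523, 0.114 and 0.117. Each was higher in WT replicate 2 than in WT replicate 1, as CGA was. Unlike CGA, at 0 counts, all of them were present in the knockout-labelled libraries, with COL12A1 at 11.8 and 10.8 CPM. For CYP19A1 they were PCDH20, COL6A3 and HBE1, at 0.0257, 0.032 and 0.0352. Their log2 fold changes of -2.44, -2.32 and -2.55 were smaller falls than that of CYP19A1, at -4.19.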

How the data were processed

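PolyA-selected RNA of 4 libraries was sequenced, 2 knockout-labelled and 2 WT, grouped by the genotype label. The authors deposited 1 table of estimated counts per gene, unnormalized, in steps of 0.5. TopHat, HOMER, DESeq2 and the build hg38 are named in the submitters' processing notes. Their versions, the annotation and the strand setting were not found in these notes or labels. Only 4.38% of 22862 symbols started within 2000 bp of their GRCh38 position, so gene positions are printed as hg19. No other row with counts overlapped a member.

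Counts were rounded to whole numbers (ties to the even number), filtered with filterByExpr (15643 genes), TMM-scaled and tested for genotype with edgeR 4.0.16 in R 4.3.3 (glmQLFit with robust estimation, glmQLFTest; adjusted p threshold 0.05); limma 3.58.1 and DESeq2 1.42.0 were alternatives. SE is the log2 fold change over the square root of F. Members and lists were chosen with earlier results of these data known. Named were all members and, per list, up to 4 called genes with the largest change and no overlap and up to 2 of the most abundant that did not pass. HAND1, GATA2, TFAP2C, TEAD4, KRT8, HSD17B1, STAR, HSD11B2, CYP11A1, ESR2, CDH2, LHX2, the genes at or near 0 counts and single neighbours were chosen after their values were seen. Of 214 list symbols, 213 were found, 3 by an older symbol. Replicates differed by more than sampling noise (chi-square per degree of freedom 4.16 between knockout-labelled and 4.31 between WT libraries).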

Additional observations from a re-analysis of the deposited data

How the results depend on the processing

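Over 13 alternatives (other scalings, DESeq2, limma-voom, other count filters, counts rounded down, no robust estimation, the replicate number as a block, and each library left out), VTCN1, VGLL1, CGA and CYP19A1 kept their direction and their call. GABRP kept its direction in all 13 and its call in 11. Leaving out a library gave log2 fold changes of -4.52 to -4.12 for VTCN1, -4.63 to -3.90 for GABRP, -1.61 to -1.30 for VGLL1, -8.75 to -7.85 for CGA and -4.29 to -4.09 for CYP19A1, and in such a fit the lone library of a genotype is assumed to vary like the other pair. GABRP lost its call without WT replicate 1 (-4.28) and WT replicate 2 (-4.18), and the cause was not tested. With all 4 libraries its adjusted p was 0.0145 in the main edgeR fit and 9.16e-08 in edgeR without robust estimation. It was 7.74e-08 with limma-voom and 4.19e-30 with DESeq2. Genes called higher ranged from 2535 to 2922 and genes called lower from 2697 to 2919 when a library was left out. DESeq2 called 2263 genes higher against 3427 with edgeR; the cause was not tested. With the replicate block 3050 genes were higher and 3154 lower, and no member changed its call. The labels do not say whether same-numbered libraries were paired. The correlation of their deviations, -0.0486, cannot decide this, because each genotype gives a single difference. Of 26 counts over lists, 9 moved by over 1.5 times under some alternative, and with no filter on low counts 5 glycoprotein hormone genes were lower against 2. Whole promoter windows of 300 bases gave the same members with each motif. At this depth 3 counts are 0.137 to 0.170 CPM, which limits CGA and CYP19A1 in the knockout-labelled libraries.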
